A study of Mus musculus with 4 samples.

Results

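The genes described here encode 10 enzymes of cornification, the last step in the life of an epidermal keratinocyte: Tgm1, Tgm2, Tgm3, Tgm5, Padi1, Padi3, Casp14, Asprv1, Blmh and Sult2b1. They were chosen by gene symbol from 19938 genes with a named transcript cluster (a set of probes along the exons of 1 gene), and each of the 10 had exactly 1 cluster. They were read on 4 arrays of whole skin from C57BL/6 mice, all heterozygous for Tnfrsf1a, the gene of the TNF receptor TNFR1. The study asked which genes could hold back keratinocyte growth and the maturation of the epidermis when Cflar is deleted in keratinocytes. The no K5-Cre group held replicate 1, of genotype CflarF/+;Tnfrsf1a+/-, and replicate 3, of genotype CflarF/F;Tnfrsf1a+/-. Replicates 2 and 6 formed the K5-Cre group and were both CflarF/F;K5-Cre;Tnfrsf1a+/-, in which Cre is driven by the keratin 5 promoter of basal keratinocytes. The series text sets only the CflarF/F genotypes against each other, which is the comparison without no K5-Cre replicate 1. The labels give no age, sex or body site, nor whether 1 animal or a pool went on an array. What the p-values measure is thus the spread between these arrays, which may be technical.

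As a keratinocyte rises to the skin surface, it replaces its plasma membrane with a shell of cross-linked protein, the cornified envelope, and its cytoplasm with keratin packed by filaggrin. Transglutaminases form the isopeptide bonds between glutamine and lysine residues that weld the shell together. Peptidylarginine deiminases (the Padi genes) turn arginine into citrulline in keratins, filaggrin and trichohyalin, which loosens these proteins for further processing. Proteases such as caspase-14 then break filaggrin down to the amino acids that keep the horny layer moist, and Sult2b1 makes cholesterol sulfate, a lipid of the barrier.

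The targeted gene does not check the labels. All 3 clusters named Cflar had higher values with K5-Cre, by 0.46 to 0.83 on the log2 scale, and the one with the highest mean rose from 8.87 ± 0.14 to 9.70 ± 0.01 (mean ± SD of log2 signal, n = 2; adjusted p = 0.0029, and 0.0545 without no K5-Cre replicate 3). The floxed exon is not given in the labels, so the name K5-Cre below stands for the label, and each direction rests on it. The array medians lay between 7.53 and 7.61. The SD of the difference over all tested genes was 0.36 between the arrays labelled K5-Cre and 0.12 between the no K5-Cre arrays. Of the 11255 genes tested, 2836 were higher and 4364 lower with K5-Cre at an adjusted p of 0.05, a split that became 3820 higher and 3326 lower when arrays were brought to 1 median of tested genes. That shift moved the median difference of the tested genes from −0.14 to 0.05.

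Of the 10 enzymes, 8 lay above the filter on low signal (a mean log2 signal of 7.61 over the 4 arrays). Of these 8, 7 were higher in the skin labelled K5-Cre and 0 were lower, and Tgm2 did not pass (limma, adjusted p under 0.05), where 64% of all genes tested passed in either direction. The count of lower members was 0 also at an unadjusted p under 0.05. Over all genes, 25.2% passed as higher and 38.8% as lower. Both K5-Cre arrays stood above both others for 7 of the 8 tested enzymes, and for 35.6% of the genes tested. Below the filter, Padi1 showed the same order and Padi3 did not. The median log2 difference was 0.96 over the 8 enzymes and −0.14 over all genes tested. Padi1 and Padi3 lay below the filter level and did not pass in the fit of all named genes, in which 58.7% of genes passed. The 7 that rose fell into a group above 3-fold (Tgm1, Tgm3 and Sult2b1) and a group of 1.72-fold to 1.99-fold (Tgm5, Casp14, Asprv1 and Blmh). With arrays shifted to the same median, to that of tested genes, or quantile normalized, 7 members again passed as higher. Under these settings in turn, 3162, 3820 and 3393 of all genes passed as higher, against 2836 with the values as deposited. Without no K5-Cre replicate 1, the comparison of the series text, 4 passed (Tgm1, Tgm3, Asprv1 and Sult2b1), where 13% of all genes passed as higher. Without no K5-Cre replicate 3, 4 passed as well, where 13.1% of all genes did.

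**Figure D1:**
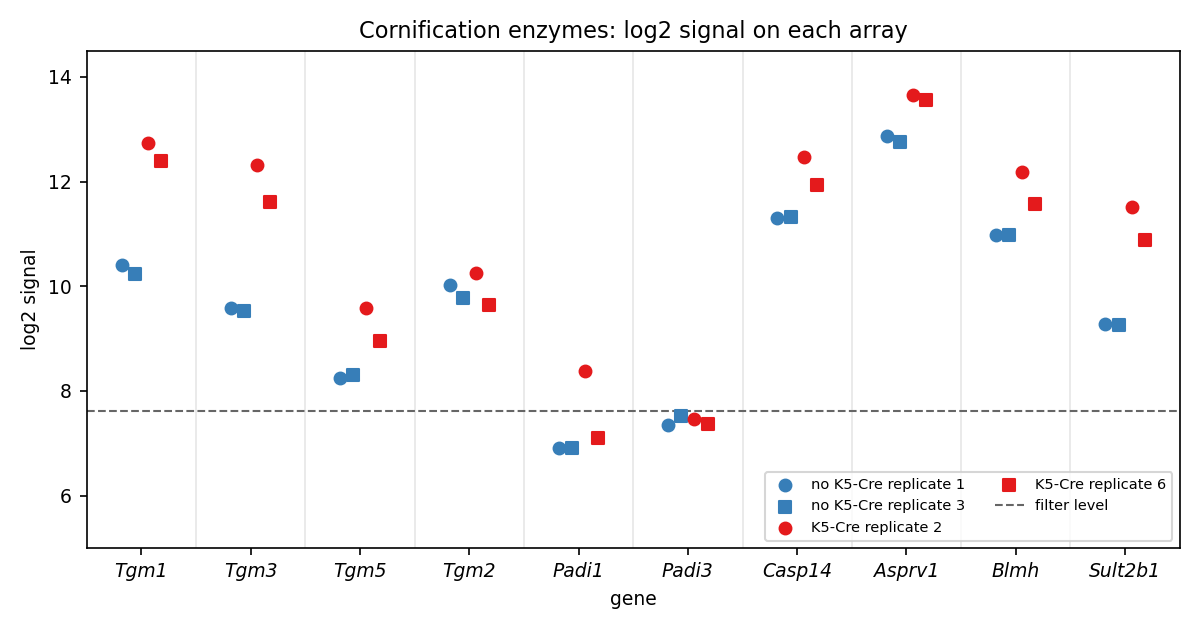
Log2 signal (vertical axis) of the 10 enzymes (horizontal axis) on each array; circles and squares are single arrays, blue without K5-Cre and red with it, and the dashed line is the filter level of 7.61. Both red points lie above both blue points for 8 genes, whereas the groups overlap for Tgm2 and Padi3; heights of different genes are not comparable, since each has its own probes.

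Tgm1 encodes the membrane-bound transglutaminase of keratinocytes, whose loss causes lamellar ichthyosis in humans. Its log2 signal was 10.40 and 10.23 on the no K5-Cre arrays (replicates 1 and 3) and 12.73 and 12.40 on those labelled K5-Cre (replicates 2 and 6). The groups lay far apart, and each array stayed close to its partner. Tgm1 rose by 2.25 ± 0.14 on the log2 scale (moderated SE, n = 2 per group, adjusted p = 0.00029), which is 4.77-fold. Among all genes tested this was the rise of rank 350. The difference stayed between 2.09 and 2.44 under all 11 alternatives.

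Tgm3 encodes a transglutaminase of the upper epidermis and the hair follicle that is made as an inactive precursor and cut to become active. The signal was 9.58 and 9.52 without K5-Cre and 12.32 and 11.61 with it. The pair labelled K5-Cre differed by 0.72, more than for Tgm1, but both arrays were far above the others. Tgm3 rose by 2.42 ± 0.24 (adjusted p = 0.00107), 5.34-fold, the largest mean rise among the 10 genes. That order rested on replicate 2, since on K5-Cre replicate 6 the rise over the no K5-Cre mean was 2.06 for Tgm3 and 2.09 for Tgm1. It lies next to Tgm6 on chromosome 2 but for 1 gene, and Tgm6 was below the filter level, with a difference of 0.21 ± 0.11 (adjusted p = 0.136 in the fit with no filter).

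Tgm5 encodes another epidermal transglutaminase, which is lost in the human acral peeling skin syndrome. Without K5-Cre its signal was 8.25 and 8.31, against 9.58 and 8.96 with it. The groups did not overlap, and replicate 2 accounted for the larger part of the mean rise. Tgm5 rose by 0.99 ± 0.22 (1.99-fold, adjusted p = 0.0133). It did not pass when no K5-Cre replicate 1 (adjusted p = 0.0651) or replicate 3 (adjusted p = 0.0538) was left out. Its direct neighbours on chromosome 2 are Tgm7 and Epb42, both below the filter level. In the fit with no filter, Tgm7 differed by 0.23 ± 0.12 (adjusted p = 0.145), and Epb42, which encodes the catalytically inactive family member of the red cell membrane, rose by 1.10 ± 0.10 (adjusted p = 0.000623).

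Tgm2 encodes tissue transglutaminase, which is made by many cell types of the dermis as well as by keratinocytes. Its log2 signal was 10.02 and 9.78 without K5-Cre and 10.25 and 9.64 with it. The K5-Cre arrays lay on either side of the no K5-Cre arrays. The difference was 0.05 ± 0.23 (adjusted p = 0.869). It became 0.35 without K5-Cre replicate 6, −0.26 without K5-Cre replicate 2 and −0.07 without no K5-Cre replicate 3, so its sign depended on the array. The first and second of these passed the threshold, in opposite directions, but with a single K5-Cre array their error comes from the no K5-Cre pair alone and does not cover the spread between K5-Cre arrays. In the same skin, 7 of 7 fibroblast markers and 5 of 6 endothelial markers fell and 7 of 7 macrophage markers rose. Over all genes tested, 38.8% fell and 25.2% rose. The endothelial markers Tek, Kdr and Emcn (K5-Cre means of 6.6, 7.14 and 7.13) passed the filter only through their no K5-Cre signal. The macrophage markers Cd163 and Fcgr1 (no K5-Cre means of 7.44 and 7.47) passed it only through their K5-Cre signal. The part of fibroblasts, endothelium and macrophages in the Tgm2 value was not tested.

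Sult2b1 encodes the sulfotransferase that makes cholesterol sulfate in the upper epidermis. The arrays without K5-Cre gave a log2 signal of 9.27 and 9.25 and those labelled K5-Cre 11.52 and 10.89. The no K5-Cre arrays were nearly equal, and the lower K5-Cre array stood well above them. Sult2b1 rose by 1.95 ± 0.22 (adjusted p = 0.00155), 3.85-fold, and stayed between 1.63 and 2.26 under 11 alternatives. The authors' deposited table, a separate set of values for clusters that differed strongly from no K5-Cre replicate 1, holds 3 of the 10 genes. There, on mm9, the Sult2b1 cluster lies on the minus strand of chromosome 7 from 52985353 to 53014892, the Tgm1 cluster on the minus strand of chromosome 14 from 56318856 to 56332312, and the Tgm3 cluster on the plus strand of chromosome 2 from 129838085 to 129874297. From the linear intensities of the authors' deposited table, the log2 difference was 1.86 for Sult2b1, 2.29 for Tgm1 and 2.41 for Tgm3.

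Of the genes fixed alongside Sult2b1 for cholesterol sulfate, Sts had no cluster named for it alone. The other 4 had a cluster and were tested, of which 1 rose, 1 fell and 2 did not pass. Over all genes tested, 25.2% rose and 38.8% fell. Prkch, encoding the protein kinase C eta that cholesterol sulfate activates, rose by 0.96 ± 0.19 (adjusted p = 0.0089), and by 0.56 with the mean of its clusters (adjusted p = 0.0215). Papss1, encoding a synthase of the sulfate donor PAPS, fell by 0.65 ± 0.10 (adjusted p = 0.00372). Papss2, the other PAPS synthase gene, differed by −0.22 ± 0.14 (adjusted p = 0.229), and −0.36 without K5-Cre replicate 6. The nuclear receptor gene Rora differed by 0.31 ± 0.28 (adjusted p = 0.378), by −0.11 without K5-Cre replicate 2 and by 0.72 without replicate 6. In the fit without replicate 6, 2 genes of this list passed as higher and 2 as lower, with an error that again comes from the no K5-Cre pair alone. The call for Prkch was lost without either no K5-Cre array, and that for Papss1 without no K5-Cre replicate 1.

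The promoters of the 3 genes that rose most are shown because these genes all rose more than 3-fold. They are the 250 bases before the transcription start in RefSeq (build GRCm38.p6), 5′ to 3′ on the strand of the gene. For Tgm1 this is chr14:55713493-55713742 on the minus strand, and for Tgm3 chr2:130012090-130012339 on the plus strand, both for the start listed first. Sult2b1 has 2 starts, shown in the order of the table, at chr7:45759613-45759862 and chr7:45742479-45742728 on the minus strand. Capitals mark the TATA box letters TATAAA in Tgm3 and the AP-1 letters TGANTCA in start 2 of Sult2b1; start 1 holds neither.
Tgm1: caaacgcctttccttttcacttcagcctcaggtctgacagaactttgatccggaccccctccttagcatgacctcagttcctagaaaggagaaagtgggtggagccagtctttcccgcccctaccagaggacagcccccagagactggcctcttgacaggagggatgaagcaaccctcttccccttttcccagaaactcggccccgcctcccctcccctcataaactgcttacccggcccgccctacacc
Tgm3: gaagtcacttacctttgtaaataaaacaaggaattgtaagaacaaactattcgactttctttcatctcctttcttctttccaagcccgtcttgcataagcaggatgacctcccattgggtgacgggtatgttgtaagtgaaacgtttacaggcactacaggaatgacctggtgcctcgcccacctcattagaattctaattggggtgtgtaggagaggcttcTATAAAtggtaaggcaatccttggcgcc
Sult2b1, start 1: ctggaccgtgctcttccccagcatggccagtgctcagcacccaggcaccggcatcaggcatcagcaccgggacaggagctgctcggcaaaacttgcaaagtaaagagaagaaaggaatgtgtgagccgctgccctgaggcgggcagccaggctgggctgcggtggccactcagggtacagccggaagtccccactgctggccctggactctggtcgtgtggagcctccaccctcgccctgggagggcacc
Sult2b1, start 2: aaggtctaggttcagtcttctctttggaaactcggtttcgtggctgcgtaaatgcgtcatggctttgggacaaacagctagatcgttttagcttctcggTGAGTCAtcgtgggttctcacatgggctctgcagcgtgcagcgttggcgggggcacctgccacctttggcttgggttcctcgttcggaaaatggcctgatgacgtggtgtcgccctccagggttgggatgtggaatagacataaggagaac
Of the 10 genes, 9 had entries in the promoter table, 11 in all, with 2 starts each for Tgm1 and Sult2b1. On both strands and with no overlap between motifs, TATAAA was found in 1 of the 11, 28 bases before the start of Tgm3, and TGANTCA in 1, 151 bases before start 2 of Sult2b1. Over all 32851 promoters of this length, 12.4% hold TATAAA and 6.75% hold TGANTCA. The grainyhead letters AACNGGTT (1.79% of all promoters) and the AP-2 letters GCCNNNGGC (13.7%) were in none of the 11 windows. These matches describe the letters of the windows only.

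Asprv1 encodes a retroviral-like aspartic protease that cuts the linker of profilaggrin. Its log2 signal was 12.88 and 12.76 without K5-Cre and 13.65 and 13.55 with it, near the top of the array scale, where the highest value was 14.34. Both groups were tight and did not overlap. Asprv1 rose by 0.78 ± 0.08 (1.72-fold, adjusted p = 0.00103), with the smallest error among the enzymes, and the call held in all 10 alternatives. Whether signals this high were compressed was not tested.

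Casp14 encodes the caspase of cornifying keratinocytes, which helps to break down filaggrin rather than to kill the cell. The log2 signal of Casp14 was 11.30 and 11.33 without K5-Cre and 12.46 and 11.93 with it. Both K5-Cre arrays were above the others, replicate 2 more so. Casp14 rose by 0.88 ± 0.19 (1.84-fold, adjusted p = 0.0113). It fell short of the threshold when no K5-Cre replicate 1 (adjusted p = 0.0584) or replicate 3 (adjusted p = 0.0519) was left out.

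Blmh encodes bleomycin hydrolase, a cysteine protease that trims filaggrin peptides down to free amino acids. Its log2 signal was 10.97 on both no K5-Cre arrays and 12.19 and 11.58 on those labelled K5-Cre. Relative to its own mean, its values lay close to those of Casp14 and Tgm5 on all arrays. After centring each gene on its own mean, the root mean square distance over the 4 arrays was 0.04 between Blmh and Casp14, 0.04 between Blmh and Tgm5, and 0.16 between Tgm1 and Tgm3. On 4 arrays in 2 groups, such distances mostly reflect like differences between the groups. How many other tested genes lay as near was not counted. Blmh rose by 0.92 ± 0.21 (1.89-fold, adjusted p = 0.0149), which also did not pass when no K5-Cre replicate 1 (adjusted p = 0.0667) or replicate 3 (adjusted p = 0.0645) was left out.

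Other genes of filaggrin processing went the same way in most cases. Rises numbered 8 among the 10 tested and falls 0, and 2 genes did not pass. Over all genes tested, 25.2% rose and 38.8% fell. The median was 1.61 against −0.14 for all genes. The largest rise was that of Spink5, encoding the inhibitor of epidermal kallikreins, at 2.64 ± 0.18 (adjusted p = 0.000353). The 2 that did not pass, named after their values were seen, were Hal, whose histidase turns filaggrin's histidine into urocanic acid (−0.12 ± 0.31, adjusted p = 0.751), and the proprotein convertase gene Pcsk6 (−0.55 ± 0.33, adjusted p = 0.199). With K5-Cre replicate 2 left out, the differences were −0.59 for Hal and −1.06 for Pcsk6. With replicate 6 left out, that of Hal was 0.35, so its sign differed between the K5-Cre arrays. These 3 values passed the threshold, again with an error from the no K5-Cre pair alone.

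Padi1 encodes the deiminase that acts on keratins and filaggrin throughout the epidermis. The log2 signal of Padi1 was 6.90 and 6.91 without K5-Cre, 8.37 on K5-Cre replicate 2 and 7.09 on replicate 6. The value on replicate 2 stood apart from the other 3, including that of its own group. The difference was 0.83 ± 0.39 (adjusted p = 0.115 in the fit with no filter). It was 1.46 without replicate 6 and 0.19 without replicate 2, so most of it lay in replicate 2.

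Padi3 encodes the deiminase of the hair follicle and the upper epidermis, whose substrates include trichohyalin. For Padi3, the log2 signal was 7.35 and 7.51 without K5-Cre and 7.46 and 7.37 with it. The groups overlapped. The difference was −0.01 ± 0.10 (adjusted p = 0.926 in the fit with no filter), and its sign turned with the scaling (0.06 with arrays shifted to the same median). Tchh, the trichohyalin gene, differed by 0.12 ± 0.13 (adjusted p = 0.446). Among all genes tested, 38.8% fell. In the same arrays 4 of 5 tested hair inner root sheath genes fell, led by the keratin gene Krt25 (−2.17 ± 0.09, adjusted p = 1e-04). The K5-Cre means of these 4 (6.86 to 7.46) lay below the filter level, so they passed the filter only through their no K5-Cre signal. The other 4 genes of the list lay below the filter level. In the fit with no filter, Krt28 was lower (−2.19), Tchhl1 was higher (0.78), and Krt26 and Krt72 did not pass. The summed linear signal of the 9 genes of that list was 2670 to 2710 without K5-Cre and 1340 to 1530 with it. In whole skin, fewer cells of a type and less RNA per cell cannot be told apart.

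Padi1 and Padi3 are direct neighbours on chromosome 4, between Padi4 and Padi2, and the 4 adjacent genes differed in direction and size. Padi2, which encodes the most widely expressed deiminase, fell by 0.72 ± 0.09 (adjusted p = 0.00198). Padi4, known for the citrullination of histones in neutrophils, was below the filter level and rose by 1.82 ± 0.10 in the fit with no filter (adjusted p = 1e-04). All 5 tested neutrophil markers rose too, where 25.2% of all genes tested did. However, the no K5-Cre means of these markers, 5.58 to 6.95, lay below the filter level. They thus passed the filter only through their K5-Cre signal. Ly6g, Mpo and Camp, below the filter level, were higher in the fit with no filter (1.75, 0.6 and 0.51). The part of neutrophils in the Padi4 value was not tested. Padi6, an oocyte gene, differed by 0.36 ± 0.14 (adjusted p = 0.0682, no filter). Of the remaining relatives, F13a1, which encodes the transglutaminase subunit of clotting factor XIII and is made by macrophages, differed by 0.87 ± 0.30 (adjusted p = 0.053). It was lower on K5-Cre replicate 2 than on replicate 6 by 0.90, as were all 7 macrophage markers (median −0.85). Tgm4, the prostate transglutaminase gene, rose by 0.39 ± 0.10 in the fit with no filter (adjusted p = 0.0178). Tgm4 did not pass after quantile normalization (adjusted p = 0.0739), nor when no K5-Cre replicate 1 (adjusted p = 0.0685) or replicate 3 (adjusted p = 0.125) was left out. After the shift of arrays to 1 median of tested genes, Tgm6, Tgm7, Padi6 and F13a1 passed as higher (adjusted p = 0.0252, 0.0298, 0.0209 and 0.03), so for these 4 the call depended on the scaling. F13a1 also passed with no filter (adjusted p = 0.0443). Of 8 relatives outside the 10 enzymes, 2 were tested, of which 1 fell and 1 did not pass. With no filter, where 58.7% of all genes passed, 4 of the 8 passed as higher and 1 as lower.

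**Figure D2:**
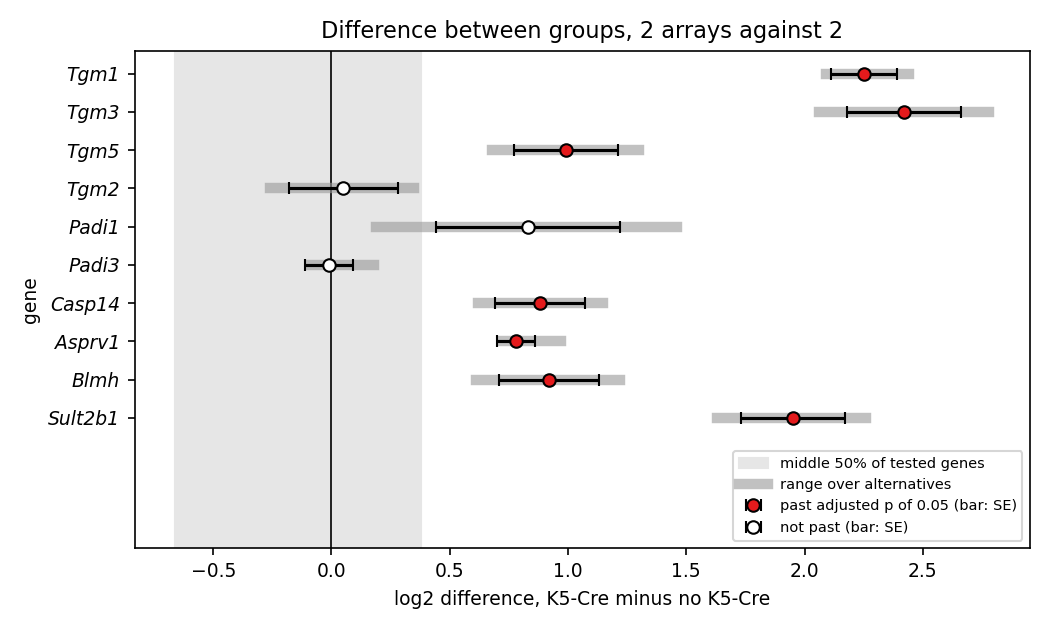
Log2 difference, K5-Cre minus no K5-Cre (horizontal axis), of each enzyme (vertical axis) with its moderated SE (2 arrays per group); filled points passed an adjusted p of 0.05, wide grey bars span the alternatives and the shaded band holds the middle 50% of tested genes (−0.66 to 0.38). Tgm1, Tgm3 and Sult2b1 lie at 1.95 to 2.42, and Tgm2 and Padi3 lie next to 0.

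The proteins that transglutaminases cross-link and other envelope proteins formed a mixed group. The filaggrin gene Flg, also on the list, had no cluster named for it alone and was not read. Of 23 genes with a cluster, 20 were tested. Rises numbered 12 and falls 1, 7 genes did not pass, and the median was 0.76 against −0.14 for all genes. Over all genes tested, 25.2% rose and 38.8% fell. Rptn, encoding repetin, had the largest rise, 5.60 ± 0.17. Its no K5-Cre mean of 5.81 lay below the filter level, so Rptn passed the filter only through its K5-Cre signal. Flg2, encoding a relative of filaggrin, fell by 1.24 ± 0.32 (adjusted p = 0.021). The Flg2 difference was −0.76 without K5-Cre replicate 6 and −1.71 without replicate 2, and in each of these fits 2 genes of the list passed as lower. Chosen after their values were seen, the classical transglutaminase substrate involucrin (Ivl) rose by 1.27 ± 0.24 (adjusted p = 0.00831), and the small proline-rich genes Sprr1a and Sprr1b, close relatives whose signals may not be separate, rose by 4.40 ± 0.10 and 4.02 ± 0.10. The hornerin gene Hrnr, also chosen in this way, differed by 0.07 ± 0.12 (adjusted p = 0.607). The call for Flg2 was lost without either no K5-Cre array.

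Transcription factors of the cornified programme were mostly higher. Rises numbered 9 among the 14 tested, falls 2, and 3 genes did not pass, where 25.2% of all genes tested rose and 38.8% fell. The median was 1.09, against −0.14 for all genes. Hopx, a homeobox gene of differentiating keratinocytes, had the largest rise (2.28 ± 0.18, adjusted p = 0.000507). Gata3, needed for the inner root sheath and the epidermal barrier in mice, had the largest fall (−1.01 ± 0.23, adjusted p = 0.0148). With arrays shifted to the same median 10 rose and 1 fell. Without either no K5-Cre array 0 fell.

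Grhl3, a grainyhead factor that acts on the Tgm1 gene in mouse epidermis, was among the 5 tested genes with the pattern most like that of Tgm1. Its log2 signal was 9.48 and 9.37 without K5-Cre and 11.85 and 11.41 with it, and its root mean square distance from Tgm1 over the 4 centred values was 0.054. The nearest was Pfkfb4, encoding a regulator of glycolysis, at 0.036, with a rise of 2.27 ± 0.13. Endou, a gene for an endoribonuclease, followed at 0.038 with a rise of 2.21 ± 0.15. The glucose transporter gene Slc5a1 and Ppp1r15a, a gene of the integrated stress response, both lay at 0.064. With 4 arrays in 2 groups, such a distance mostly reflects a like difference between the groups.

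**Figure D3:**
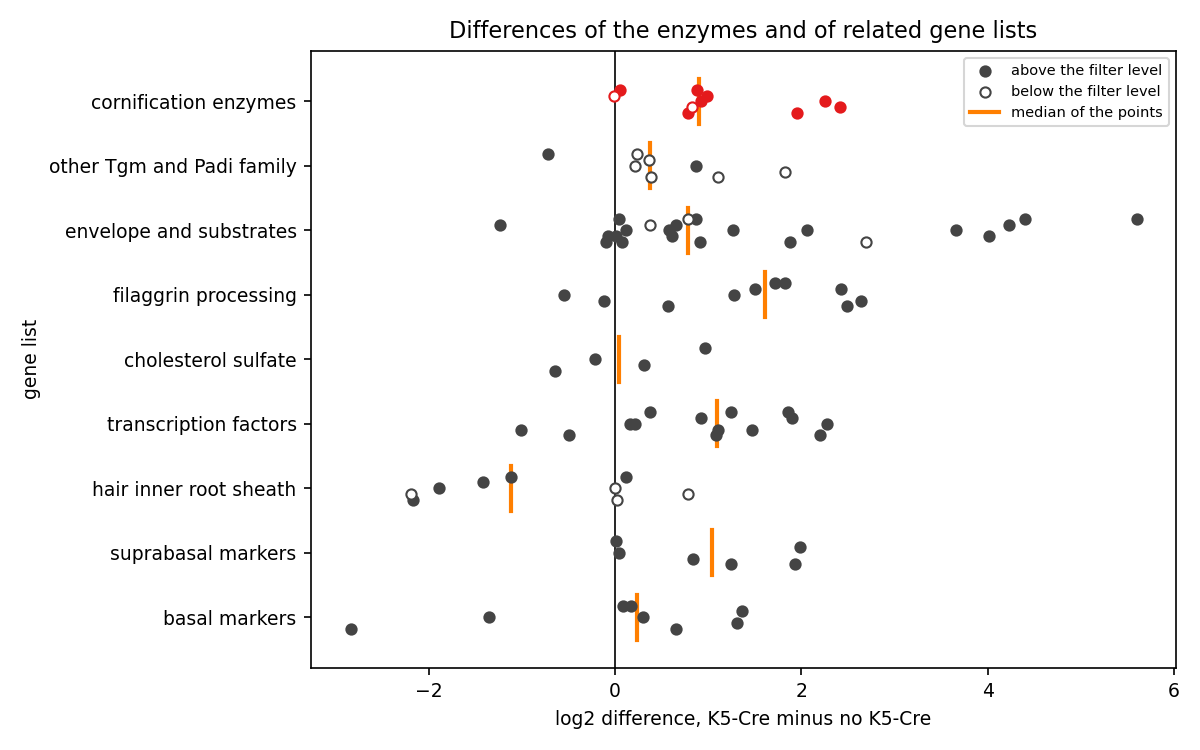
Log2 difference, K5-Cre minus no K5-Cre (horizontal axis), of single genes in the enzyme list (red) and in related lists (grey); open points lay below the filter level and orange lines are medians of the points shown. The enzymes span −0.01 to 2.42, and the envelope and substrate genes −1.24 to 5.60.

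All 10 enzymes had a higher signal on K5-Cre replicate 2 than on replicate 6, by 0.08 (Padi3) to 1.27 (Padi1), with a median of 0.61. Over all genes tested, 44.6% were higher on replicate 2, with a median difference of −0.03, and over the 2836 genes that were higher with K5-Cre the share was 51.9%. The summed linear signal of the 10 enzymes was 15600 to 16400 without K5-Cre, 31000 on replicate 6 and 40500 on replicate 2. Such sums, here and for the other lists, weigh most on the genes of highest signal, among the enzymes Asprv1. The suprabasal markers showed the same order on 6 of 6 genes (median 0.29), and the basal markers on 7 of 8 (median 0.18). So did 9 of 10 other filaggrin processing genes (median 0.46) and 21 of 23 envelope and substrate genes (median 0.3). For the transcription factors it was 12 of 14 (median 0.3), and for the inner root sheath genes 8 of 9 (median 0.19). The order held for only 2 of 4 cholesterol sulfate genes (median 0.22) and 4 of 8 other family members (median 0.02). The macrophage markers had the opposite order on 7 of 7 genes. These are 2 arrays of 1 label, so the difference between them has no replicate and no test.

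**Figure D4:**
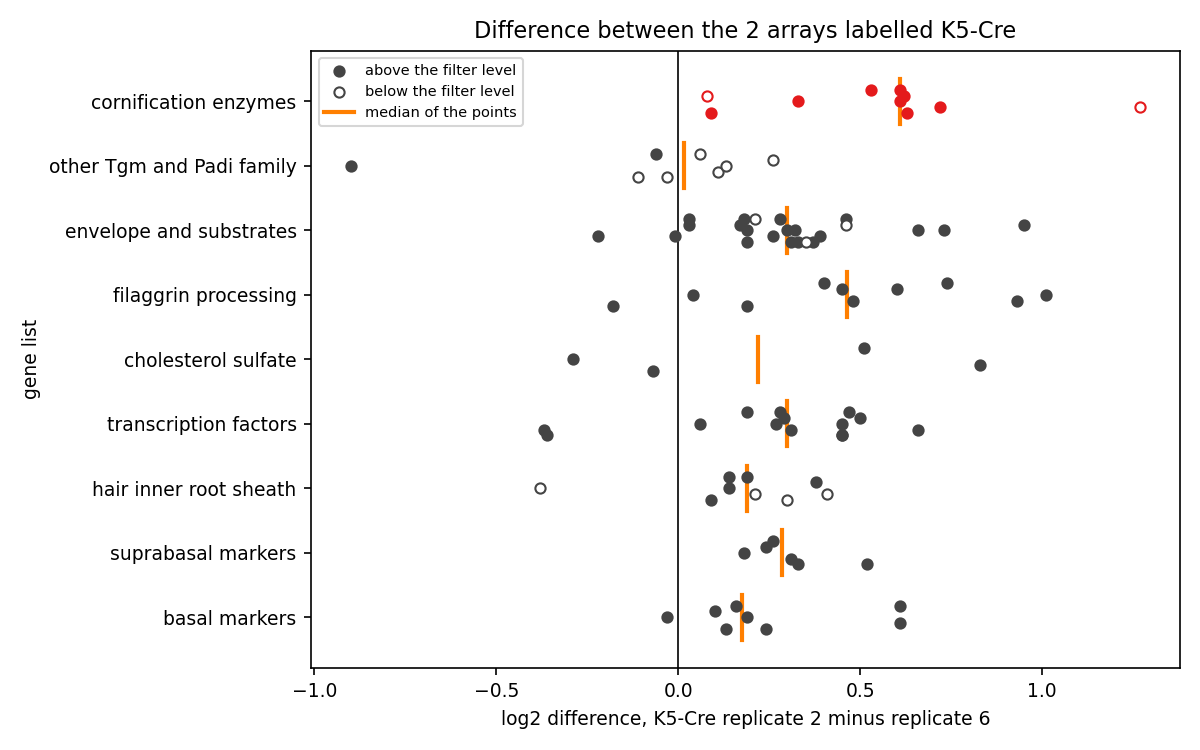
Log2 signal of K5-Cre replicate 2 minus that of replicate 6 (horizontal axis) for single genes of the enzyme list (red) and of related lists (grey), with open points below the filter level and medians in orange. All 10 red points lie to the right of 0, with a median of 0.61, above the medians of the other lists shown.

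Marker genes of the skin's cell types also differed in this comparison, and the part of those cells in the values of the enzymes was not tested. The shares to set beside the counts below are 25.2% higher and 38.8% lower over all genes tested. Of 6 tested suprabasal markers 4 rose, led by Lypd3 (1.99), and Krt1 and Krt10 differed by 0.04 and 0.01 and did not pass; the summed linear signal of the list was 31700 to 33000 without K5-Cre and 44100 to 53700 with it. Of 8 basal markers 4 rose and 2 fell, with Krt14 at 1.36 and Krt15 at −2.84 as the extremes, and the sum went from 19800 to 20000 up to 25700 to 29500. All 7 fibroblast markers fell, led by Lum (−3.83), and their sum was 41000 to 42600 without K5-Cre and 5650 to 5830 with it. Endothelial markers fell in 5 of 6 cases, led by Tek (−3.47; sums of 7230 to 7580 and 1860 to 2360). Skeletal muscle markers fell in 5 of 5, led by Neb (−5.61; 25500 to 29100 and 1320 to 1660). Mast cell markers fell in 5 of 5, led by Mcpt4 (−5.45; 14700 to 15500 and 1050 to 2180). Adipocyte markers fell in 3 of 3, led by Adipoq (−4.23; 4970 to 5370 and 844 to 894), and both tested sebaceous gland markers, Scd1 (−3.54) and Krt79 (−1.45), fell as well (list sums of 4990 to 5230 and 1230 to 1660). The other 5 sebaceous markers lay below the filter level, and in the fit with no filter Mc5r was lower (2-fold, adjusted p = 0.000676), Awat1 was higher (0.32, adjusted p = 0.045) and 3 did not pass. The median over all 7 was −0.01. Macrophage markers rose in 7 of 7, led by Cd163 (3.36, sums of 3720 to 3900 and 16900 to 28300). Neutrophil markers rose in 5 of 5 tested, led by Cxcr2 (6.46, sums of 641 to 732 and 15700 to 17900). These 5 passed the filter only through their K5-Cre signal. Genes low in 1 group entered only through the other, so such counts partly follow from the filter. Of 2 tested hair cortex genes Krt33b rose by 0.38 and Krt35 fell by 0.56 (sums of 1470 to 1550 and 1450 to 1500). In the fit with no filter, Krt31, Krt34 and Krt86 were higher, S100a3, Hoxc13 and Msx2 were lower, and Krt33a did not pass. Of 4 melanocyte markers Mlana rose by 0.45 and Dct fell by 1.50 (2060 to 2140 and 1420 to 1460). No T cell marker passed the filter (267 to 287 and 440 to 501). With no filter, Cd3e (0.75) and Cd2 (1.02) were higher and Cd3g did not pass, and the melanocyte gene Tyr was lower (−0.7). The log2 scale holds no 0, so no marker could be read as absent.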

How the data were processed

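RNA of mouse skin was measured on 4 Affymetrix MoGene 1.0 ST arrays. The series table that the authors deposited holds log2 signals of 35557 transcript clusters, used here as deposited. How it was normalized was not given in the sources used here. The authors' deposited table of 1396 clusters holds a linear intensity per array, on annotation of build mm9 per the file headers, and served as an alternative. The log2 of that intensity differed from the series table by up to 2.47 (median gap 0.22), so the tables were made differently. Clusters were named from the platform annotation where it gives 1 gene symbol (21789 clusters), and 21698 of these were looked up through the Entrez identifier in a RefSeq table. A gene was tested if the mean log2 signal of its cluster over the 4 arrays exceeded 7.61, the median of these means over all clusters; where a gene had several, that of highest mean stood for it. The test was that of limma 3.58.1 under R 4.3.3 (lmFit, eBayes with a mean-variance trend, two-sided, 5.01 degrees of freedom), with Benjamini-Hochberg adjustment over all 11255 genes tested. The procedure was run on simulated data with the same spread in both groups. That run does not cover the unequal spread of the 2 groups here. Genes below the filter level took their values from a fit of all 19938 named genes.

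The number of arrays limits the precision: the median standard error was 0.12 on the log2 scale. An exact permutation test of 2 against 2 arrays reaches no two-sided p below 0.333, so each p rests on limma's variance model. The members and the other lists were chosen with earlier results of these data known, and no list was tested as a set. All members were named, along with close relatives, the 5 genes nearest to Tgm1, and the largest rise and fall past the threshold in each other list. Alternatives were quantile normalization, 2 shifts of array medians (that of the tested genes added after the data were seen), no filter, no variance trend, the mean of clusters and leaving out each array. The authors' deposited table also holds values relative to the no K5-Cre mean for each array, which were not used.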

Additional observations from a re-analysis of the deposited data

How the results depend on the processing

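No paired analysis was possible because the groups share no replicate number. The count of all genes past the threshold (7200) became 11712 with no filter, and 6145 of these were higher, since 8683 more genes were tested. Leaving out each array in turn gave 3831 to 9147 genes, with 1463 to 3716 higher and 2368 to 5454 lower. In the same fits, 4 to 8 members passed, and 4 to 8 were higher. The lowest counts came without a no K5-Cre array, where the spread is that of the arrays labelled K5-Cre alone. Without a K5-Cre array the lone one is assumed to vary like the no K5-Cre pair, so these fits give values but do not cover the spread between K5-Cre arrays. Of 101 alternative values for single members, 86 kept their direction and their side of the threshold, 6 fell short of it, 2 moved past it in the same direction and 7 changed sign, 1 of them (Tgm2 without K5-Cre replicate 2) also moving past it. Among the 86 are the values from the authors' deposited table, which had no test and so kept their direction only. The changes of sign were those of Padi3 and Tgm2. Padi3 was at 0.06 with arrays shifted to the same median, 0.18 with the median of tested genes and 0.02 under quantile normalization, and between −0.09 and 0.07 with 1 array left out. Tgm2 ranged from −0.26 to 0.35 with 1 array left out. Of 304 such values for 31 related genes, 273 kept direction and side, 11 fell short, 16 moved past in the same direction and 4 changed sign, 1 of them (Hal without K5-Cre replicate 6) also moving past. Those 4 were of Hal (−0.59 to 0.35 with 1 array left out, and 0.07 with the median of tested genes), Hrnr (−0.08 to 0.23) and Rora (−0.11 to 0.72). The cause of these changes was not tested. Signal over background was not assessed, which limits Padi1, Padi3 and the other genes below the filter level.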
